A study of Mus musculus with 4 samples.

Results

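The OAS family makes the 2′-5′-oligoadenylate synthetases and their relatives, and 6 of its genes (Oas1a, Oas1g, Oas2, Oas3, Oasl1 and Oasl2) are described here in immune cells from mouse glioma. The 6 genes were taken by symbol from the 30406 genes whose identifier occurred in the feature lists of all 4 libraries, and all 6 were found. They were picked by symbol, with earlier results of these data already known. Live CD45.2+ leukocytes had been sorted from brains that carried an intracranial graft of Gl261, a mouse glioma line. The labels give brain as the tissue, and 1 sentence of the sort protocol says lung instead, so brain is taken from the other labels. The 4 groups had 1 single-cell RNA library each. WT and IFNaR-/- mice without treatment were sorted on day 20, and WT and IFNaR-/- mice given anti-PD1, an antibody against a checkpoint receptor of T cells, on day 25. Anti-PD1 was injected intraperitoneally at 200 ug per mouse on days 7, 11, 15 and 19. All mice thus carried the tumour, and the untreated and treated groups also differ in the day of sorting. IFNaR-/- mice, called KO below, lack the receptor for type I interferons. The labels state that cell suspensions were pooled before the sort, and the number, age and sex of the mice are not given in the sources used here.

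Synthetases of this family bind double-stranded RNA, a sign of viral or misplaced RNA, and then join ATP into short 2′-5′-linked chains of adenylate. These chains are a messenger that sets off antiviral defence in the cell. The genes are textbook targets of type I interferon: the receptor activates a complex that holds STAT2 and IRF9 and binds interferon-stimulated response elements in their promoters. Macrophages and microglia express the family well during interferon responses, and interferon-gamma and interferon regulatory factors can also act on some of its genes.

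All 6 genes lie on chromosome 5 of GRCm38, in 2 clusters. Oasl2 (114896936 to 114912234, plus strand) and Oasl1 (114923240 to 114937915, plus strand) are neighbours. The other cluster, all on the minus strand, holds Oas2 (120730333 to 120749853), Oas3 (120753098 to 120777661), Oas1g (120876142 to 120887613) and Oas1a (120896256 to 120907521).

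The RefSeq promoter table (GRCm38.p6, 250 bases before to 50 after each start) held 5 of the 6 genes, all but Oas2. Its windows were searched on both strands for GAAA, any 2 bases and again GAAA, the core letters of the interferon-stimulated response element. Oas1a and Oas1g each held 2 matches that overlap each other, Oas3 held 1, and the windows of Oasl1 and Oasl2 held 0. Among all 32851 promoters of the table, 3.44% held at least 1 match. The sequences below are the 150 bases before the start of 4 genes, 5′ to 3′ on the strand of the gene, with matches in capitals. They are shown so that the promoters of the genes with the lowest and the highest transcript levels left in KO macrophages, relative to WT, can be compared.
Oas1a, chr5:120907526-120907675, minus strand: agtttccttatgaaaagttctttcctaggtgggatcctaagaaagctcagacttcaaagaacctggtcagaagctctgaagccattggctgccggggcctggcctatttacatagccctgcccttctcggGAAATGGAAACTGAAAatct
Oas1g, chr5:120887614-120887763, minus strand: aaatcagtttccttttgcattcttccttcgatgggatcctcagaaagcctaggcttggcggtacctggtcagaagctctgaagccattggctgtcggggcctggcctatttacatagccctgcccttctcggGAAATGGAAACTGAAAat
Oas3, chr5:120777660-120777809, minus strand: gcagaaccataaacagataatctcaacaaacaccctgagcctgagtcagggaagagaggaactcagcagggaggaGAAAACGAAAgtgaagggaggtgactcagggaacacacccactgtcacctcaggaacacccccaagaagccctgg
Oasl2, chr5:114896784-114896933, plus strand: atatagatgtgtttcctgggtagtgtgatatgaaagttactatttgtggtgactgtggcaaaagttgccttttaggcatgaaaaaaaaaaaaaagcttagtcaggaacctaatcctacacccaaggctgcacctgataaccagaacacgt
Positions come from GENCODE for the genes and from RefSeq for the promoters. The first base of a match lay 20 and 14 bases before the start in Oas1a, 18 and 12 in Oas1g, and 75 in Oas3. Oas1a and Oas1g share a run of 73 identical bases around the start, and the matches lie inside it. A match is a description of letters, and the windows without one say only that these letters are not in them.

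The same closeness affects the counting of these 2 genes. Of all 50-base windows of the longest Oas1a transcript, 57.6% also occur in another gene, each of them in Oas1g, and 54.7% of the Oas1g windows occur elsewhere, nearly all in Oas1a. In the first 400 bases of the transcript the shares were 82.3% for Oas1a and 88.9% for Oas1g, and in the last 400 bases 43.6% and 11.1%. With 90-base windows the shares were lower, 43.4% for Oas1a and 40.6% for Oas1g over the whole transcript. They were 67.2% and 71.1% in the first 400 bases and 23.8% and 0 in the last 400. Reads from a shared window cannot be told apart, so the single values of Oas1a and Oas1g are uncertain, and the split between them depends on the transcript end that was read. Oas2, Oasl1 and Oasl2 had 0 shared 50-base windows, and Oas3 had 0.471%.

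The libraries held 3705 to 9530 barcodes and 32410040 to 94732545 UMIs, and 26014 of 28661 barcodes were kept, with medians of 5152 to 9528 UMIs per cell. Cells were put into lineages by raw counts of marker genes, which include none of the OAS genes. The labels name the same 5' kit for every library, but the UMIs of T cell receptor V segments per UMI of the constant genes, which depend on the end of these transcripts that was read, were 0.0178 and 0.0155 in the untreated WT and KO libraries, 2.10 in the anti-PD1 WT library and 0.0810 in the anti-PD1 KO library. Within the anti-PD1 pair the 2 libraries therefore differ in this ratio as well as in genotype. What lies behind the ratio is not known here. For genes in that pair a difference in how the libraries were made and the genotype cannot be told apart. The anti-PD1 libraries are labelled as an even mix of CD3+ and CD3- cells, and 4.23% and 6.91% of their cells passed the T gates. The anti-PD1 WT and KO libraries shared 95 barcodes, and other pairs of libraries shared at most 3. Without the shared barcodes the log2 ratio KO/WT of the family was -5.49 in anti-PD1 macrophages, -6.83 in microglia and -4.11 in CD8 T cells, beside -5.51, -6.86 and -4.13 with them. A UMI of Ptprc, the gene of CD45, was found in 74.2 to 94.0% of the kept cells of each library. Ifnar1 and Ifnar2 are genes of the type I interferon receptor. In CPM (UMIs per 1000000 UMIs), Ifnar1 stood at 96.0 in WT and 129.5 in KO cells of the untreated pair. In the anti-PD1 pair it stood at 77.3 and 146.6 CPM. Ifnar2 stood at 89.7 and 69.7 CPM in the untreated pair, and at 298.0 and 202.1 CPM in the anti-PD1 pair. The deleted part is not given in the sources used here, so these counts do not check the genotype labels. In the anti-PD1 libraries the gates for cDC1 and plasmacytoid dendritic cells held little Xcr1 (17.1 and 25.9 CPM) or Siglech (31.2 and 75.3 CPM) and much macrophage Lyz2, so levels and folds of dendritic cell gates are given for the untreated libraries only. With 1 library per group there is no spread between replicates and no test. All intervals below are exact 95% intervals that cover counting error only, and levels in CPM are relative to all UMIs of the gate.

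In WT cells the family was highest in myeloid gates. Over the whole untreated WT library the 6 genes gave 22613 UMIs, and in the anti-PD1 WT library 48639. Neutrophil-gated cells had the highest family sum of the untreated WT library, 1366 CPM (1213 to 1533) from 56 cells, followed by monocyte/macrophage-gated cells with 990.2 CPM (974.2 to 1006), migratory dendritic cells with 616 CPM (572 to 663) and microglia with 477 CPM (456 to 498.5). These 4 intervals did not overlap. Plasmacytoid dendritic cells had 263 CPM and mast cells and basophils 206 CPM, and the intervals of this pair of neighbours overlapped. Macrophage genes in both gates are given below, and the level of the plasmacytoid gate is not read as its own. Lymphoid cells closed the order, from 102 CPM in T cells outside the CD4 and CD8 gates to 81.8 CPM in CD8 T cells and 74.1 CPM in NK cells, with all neighbours overlapping except CD4 and CD8 T cells.

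The order was not the same for each gene. Oas1a, a synthetase with 1 catalytic unit, was highest in monocyte/macrophage-gated cells (111.9 CPM), followed by microglia (60.9), neutrophils (52.2) and migratory dendritic cells (51.01), which overlapped, and CD8 T cells were at 23.3 CPM. Oas1g, its close paralogue, was highest in macrophages (31.9 CPM) and microglia (23.2 CPM) and at most 9.49 CPM (2 UMIs, in neutrophils) elsewhere. In the untreated WT library Oas1g had 3 UMIs in CD8 T cells and 0 in CD4 T, NK, B and plasmacytoid dendritic cells, where a floor of 3 counts, set as the limit for a count of 0, equals 0.953, 2.14, 7.34 and 3.91 CPM. Oas2, a synthetase with 2 repeated units, reached 118.6 CPM in neutrophils and 107.1 in macrophages, which overlapped, and 0.712 CPM (1 UMI) in NK cells. Oas3, which has 3 such units and is the main maker of the messenger in human cells, was highest in neutrophils (208.7 CPM), then macrophages (132.5 CPM) and mast cells and basophils (73.9 CPM), and the intervals of CD8 T cells (43.5 CPM), migratory dendritic cells (43.2 CPM) and microglia (41.2 CPM) overlapped. Oasl1, a relative without synthetase activity that is known to hold back translation of Irf7, and Oasl2, which keeps the activity in mice, were both highest in neutrophils (303.6 and 673.6 CPM) and lowest in CD8 T cells (4.31 and 4.47 CPM). The intervals of Oasl1 overlapped between neutrophils and macrophages (243.0 CPM) and between CD8 and CD4 T cells, and those of Oasl2 did not overlap with the next gate at either end.

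The make-up of the family also differed between T cells and myeloid cells. In untreated WT macrophages Oasl2 gave 36.7% and Oasl1 24.5% of the 14546 family UMIs, and Oas3 gave 13.4%. Of the 513 family UMIs in CD8 T cells, Oas3 gave 53.2% (48.8 to 57.6%), Oas1a 28.5% (24.6 to 32.6%), Oasl2 5.46% and Oasl1 5.26%. CD4 T cells lay between, with 37.7% Oas3 (32.3 to 43.2%) and 26.9% Oasl2 of 316 UMIs. NK cells had yet another make-up, in which Oasl1 gave 39.4% (30.0 to 49.5%) of 104 UMIs, and mast cells and basophils had 35.8% Oas3 of 81. In the anti-PD1 WT library CD8 T cells had 39.6% Oas3 and 36.3% Oas1a of 91 UMIs, against 8.24% and 22.9% in macrophages. CD4 T cells of that library had 25.0% Oas3 (15.0 to 37.4%) and 48.4% Oas1a of 64 UMIs. Its other T cells had 10.6% Oas3 (3.55 to 23.1%), which overlaps the share in macrophages, and 55.3% Oas1a of 47 UMIs.

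**Figure D1:**
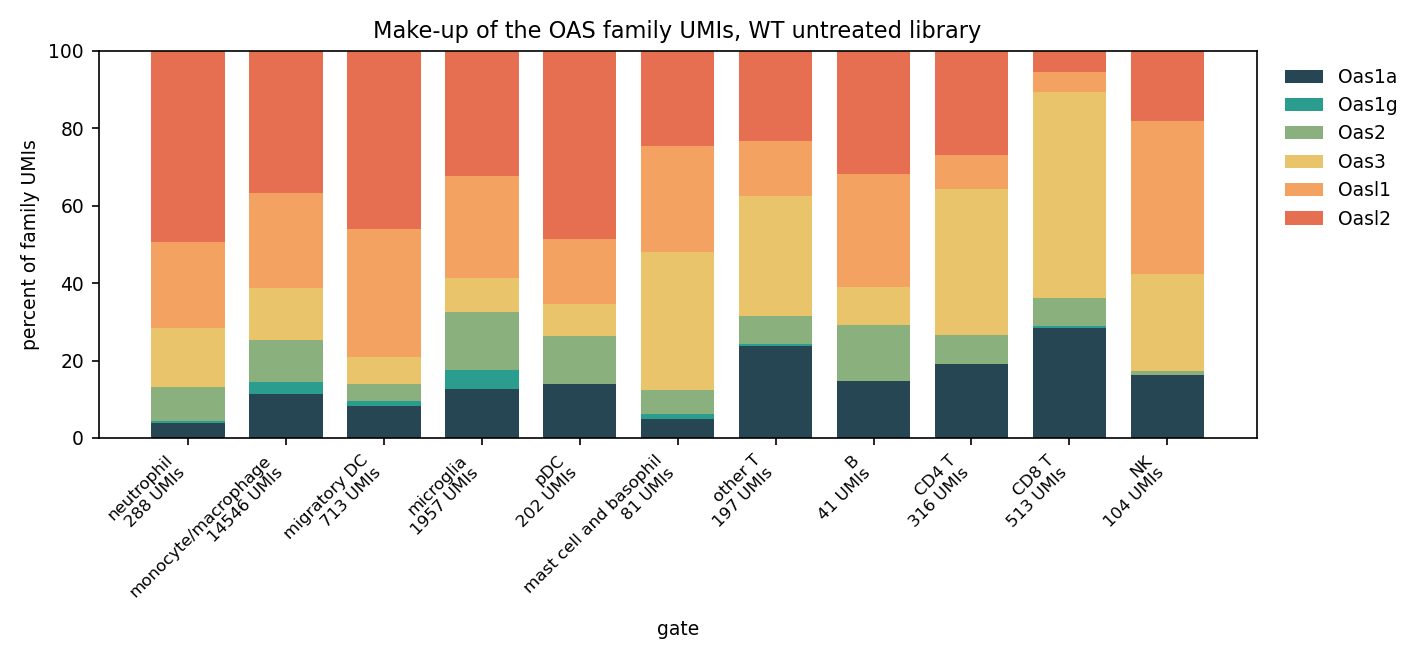
Share of each gene in the OAS family UMIs of the untreated WT library (vertical axis, percent), by gate (horizontal axis, with the family UMIs of the gate). Oas3 and Oas1a made up most of the bar in CD8 T cells (53.2% and 28.5%), and Oasl1 and Oasl2 most of the bar in monocyte/macrophage-gated cells (24.5% and 36.7%).

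Free RNA from macrophages gives T cell barcodes UMIs of macrophage genes, which keep the ratio of their source. Lyz2, C1qa, C1qb, C1qc and Apoe in CD8 T-gated cells stood at 0.373 to 1.46% of their macrophage level in the untreated WT library and at 1.39 to 3.27% in the anti-PD1 WT library. Oas3 stood at 32.9% and Oas1a at 20.8% of the macrophage level in untreated WT CD8 T cells, and Oas2 at 5.36%, all above that range. Oasl1 (1.77%) and Oas1g (1.499%, 3 UMIs) were just above it and Oasl2 (1.23%) within it, so these 3 genes are not read as expressed in these cells. In the anti-PD1 WT library Oas3 stood at 67.8%, Oas1a at 22.4% and Oas2 at 17.1% of the macrophage level, and Oasl1 (4.94%) and Oasl2 (4.41%) lay above the range by less. The same 5 macrophage genes stood at 15.5 to 33.2% of their macrophage level in plasmacytoid dendritic cells of the untreated WT library, where the OAS genes other than Oas1g (0 UMIs) stood at 16.7 to 35.1%, so the family level of that gate is not read as its own. In mast cells and basophils the range was 8.40 to 21.4%, and Oas1a (9.11%), Oas2 (11.9%) and Oasl2 (14.0%) fell inside it and Oas1g (1 UMI) below it, while Oasl1 (23.1%) lay just above and Oas3 (55.8%) above it.

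The family was lower in KO than in WT cells in the gates that could be compared. In untreated monocyte/macrophage-gated cells the family sum was 990.2 CPM in WT (14546 UMIs in 1941 cells) and 45.7 CPM in KO (511 UMIs in 1059 cells), 21.7-fold lower (19.8 to 23.7). After anti-PD1 it was 603.9 CPM (32572 UMIs in 5882 cells) and 13.3 CPM (330 UMIs in 4093 cells), 45.5-fold lower (40.8 to 50.8). All 6 genes passed the minimum of 50 UMIs in both pairs and all 6 were at least 2-fold lower in KO, where 4.42% of all 10563 genes were at least 2-fold lower in the untreated pair and 7.88% of 11786 in the anti-PD1 pair. Most of these UMIs come from the WT libraries, so passing the minimum favours genes that are high there. The median log2 ratio KO/WT of the 6 genes was -5.34 and -6.04, beside 0.08 and 0.13 for all genes tested. Scaling by TMM moved all ratios of the anti-PD1 macrophages by -0.22 (log2), which is small beside these values.

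**Figure D2:**
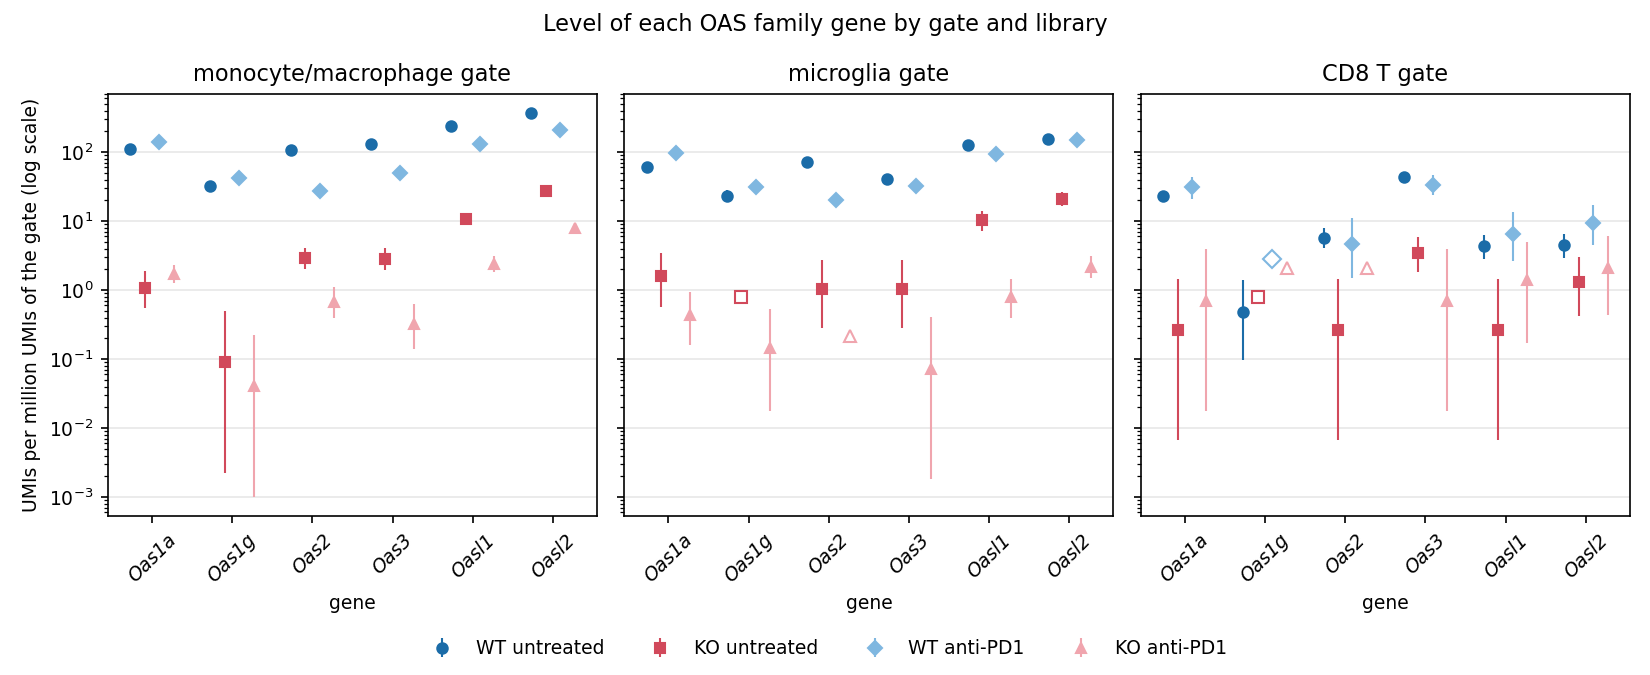
Level of each gene in CPM of the gate (log axis) in monocyte/macrophage, microglia and CD8 T gates, 1 point per library with its 95% counting interval. Open symbols stand at the level of 3 UMIs where the count was 0, and WT points lie above the KO points of the same pair for every gene in the myeloid gates.

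The genes differed in how much was left. Oas1a stood at 111.9 CPM in untreated WT macrophages and 1.07 CPM in KO (12 UMIs), and at 138.3 and 1.73 CPM (43 UMIs) after anti-PD1. It was 104-fold lower (59.5 to 202) and 80.0-fold lower (59.3 to 111). Both WT libraries were high and both KO libraries low, with no overlap of the intervals.

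Oas1g had 469 UMIs (31.9 CPM) in untreated WT macrophages and 1 UMI in KO, and 2299 UMIs (42.6 CPM) and 1 UMI after anti-PD1. The ratios were 357-fold (63.8 to 14131) and 1059-fold (189.9 to 41857), with wide intervals because a single UMI sets each. Among all genes tested, ordered from the lowest ratio with 0.5 counts added to each library, Oas1g ranked 1 of 11786 in the anti-PD1 macrophages and 3 of 10563 in the untreated ones. It passed the minimum of 50 UMIs through its WT counts. With 1 UMI in KO these ranks depend largely on the WT level, so they are a description only.

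Untreated macrophages had Oas2 at 107.1 CPM in WT and 2.95 CPM in KO, then at 27.4 and 0.684 CPM in the treated pair, 36.3-fold lower (25.7 to 52.9) and 40.1-fold lower (25.0 to 69.0). Oas3 was at 132.5 and 2.86 CPM, and at 49.8 and 0.322 CPM, 46.3-fold lower (32.7 to 67.9) and 154.5-fold lower (78.3 to 358). The interval of Oas3 in the anti-PD1 pair lies above that in the untreated pair, and that of Oas2 overlaps it.

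In the untreated pair the folds of the 2 Oasl genes were the smallest of the 6, while in the anti-PD1 pair that of Oasl1 was above that of Oas2, with overlapping intervals. Oasl1 was at 243.0 CPM in untreated WT and 10.9 CPM in untreated KO macrophages, against 132.9 and 2.41 CPM in the treated pair, 22.3-fold lower (18.6 to 26.9) and 55.1-fold lower (42.7 to 72.2). Oasl2 was at 363.7 and 27.8 CPM, and at 212.9 and 8.09 CPM, 13.1-fold lower (11.7 to 14.7) and 26.3-fold lower (22.9 to 30.4). Oasl2 was thus the least lowered of the 6 genes in macrophages of both pairs, where its interval lay below those of the other 5 in the untreated pair and overlapped with that of Oas2 in the anti-PD1 pair. It took 36.7% of the family UMIs in untreated WT macrophages and 60.9% in untreated KO macrophages, and 35.2% and 60.9% after anti-PD1. Oasl1 and Oasl2 are the genes whose promoter windows held no match of the searched letters, but with 5 windows read this is a description only.

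**Figure D3:**
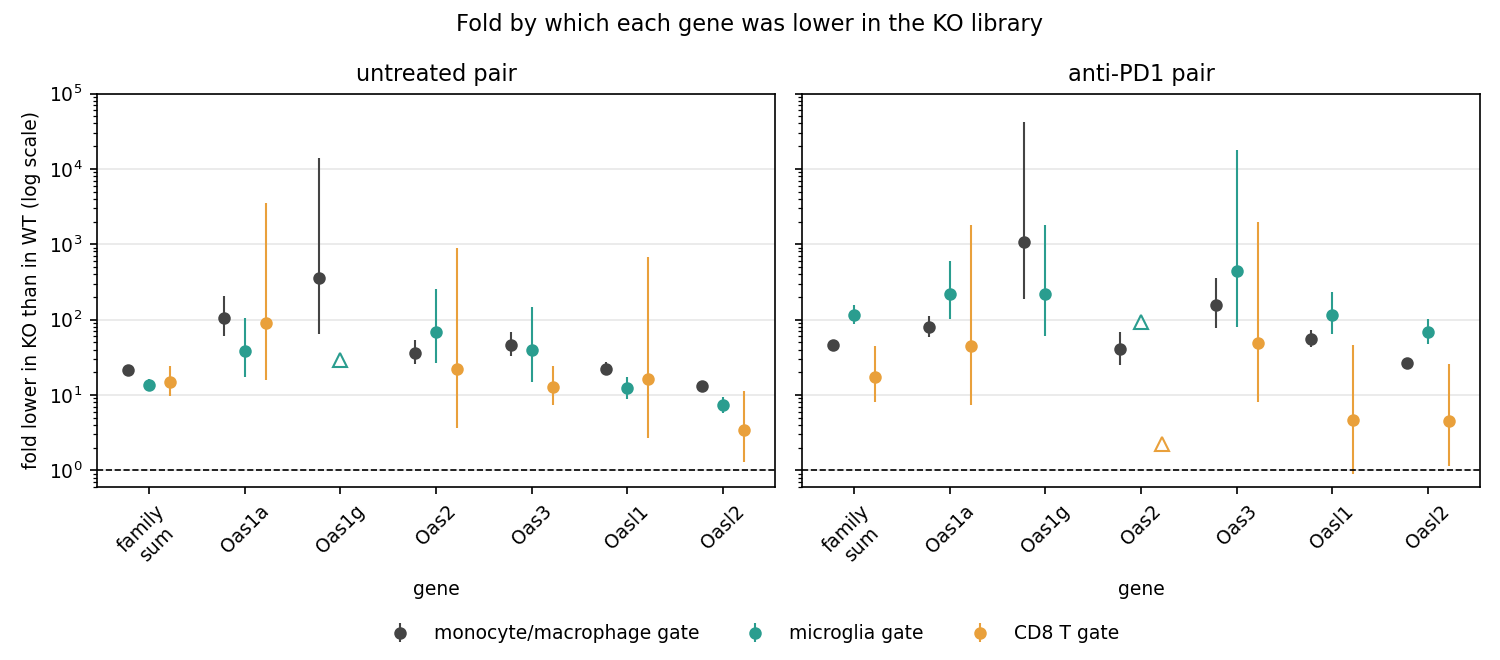
Fold by which the family sum and each gene were lower in the KO than in the WT library (log axis), with 95% counting intervals, for monocyte/macrophage, microglia and CD8 T gates of the untreated (left) and anti-PD1 pair (right). Open triangles are lower bounds against 3 UMIs where the KO library had 0. In macrophages Oasl2 has the smallest fold in both panels (13.1 and 26.3), and the dashed line marks equal levels.

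In microglia the family was also lower in KO in both pairs, by less than in macrophages without treatment and by more in the anti-PD1 pair. The family sum was 477 CPM in 421 WT and 35.0 CPM in 322 KO microglia without treatment, 13.6-fold lower (11.4 to 16.4). After anti-PD1 it was 422.5 CPM in 1567 WT and 3.65 CPM in 1769 KO microglia, 116-fold lower (87.7 to 156). All 6 genes passed the minimum and were at least 2-fold lower in each pair, where 2.50% and 7.03% of all genes were. In untreated KO microglia Oas1g had 0 UMIs against 95 in WT, at least 29.3-fold lower, and after anti-PD1 Oas2 had 0 against 425, at least 92.0-fold lower. Oasl2 was again the least lowered, 7.33-fold (5.80 to 9.37) without treatment (154.3 to 21.0 CPM) and 67.8-fold (47.4 to 100.6) after anti-PD1 (148.4 to 2.19 CPM), but its intervals overlapped with those of Oasl1 (12.3-fold, 8.85 to 17.4, and 116.5-fold, 64.99 to 233.9). Untreated microglia-gated cells held Lyz2 at 2465 CPM in WT and 2468 in KO, against 5639 and 3276 in macrophages. In the anti-PD1 libraries Lyz2 was at 9765 CPM in WT and 5163 in KO microglia, against 11458 and 10027 in macrophages. A stricter gate, chosen after this was seen, took at least 5 marker UMIs and no Ccr2. Under it Lyz2 was at 5078 CPM in the 630 anti-PD1 WT cells that were left. The log2 ratio of the family in the anti-PD1 pair was -7.79 there, beside -6.86 under the wider gate. The part of macrophages in the values of the wider gate was not tested.

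In CD8 T cells Oas1a and Oas3 carried most of the family UMIs. Oas3 had 273 UMIs (43.5 CPM) in 583 untreated WT cells and 13 UMIs (3.41 CPM) in 339 KO cells, 12.8-fold lower (7.35 to 24.3). Oas1a had 146 UMIs (23.3 CPM) and 1 UMI (0.262 CPM), 88.8-fold lower (15.7 to 3532). For both genes the intervals of the 2 libraries did not overlap. After anti-PD1, with 202 and 382 cells, Oas3 had 36 UMIs in WT and 1 in KO, a 48.4-fold lower level (8.14 to 1962), and Oas1a had 33 and 1, 44.3-fold lower (7.42 to 1803). The family sum in CD8 T cells was 14.9-fold lower (9.62 to 24.2) and, from 91 and 7 UMIs, 17.5-fold lower (8.14 to 44.7). The latter ranged from 17.3-fold to 43.4-fold under the alternatives, the highest from 23 and 1 UMIs after thinning. CD4 T cells had 316 family UMIs in untreated WT and 3 in KO, 42.4-fold lower (14.4 to 207), and Oas3 had 119 and 0, at least 15.98-fold lower. After anti-PD1 the CD4 T cells had 64 and 3 family UMIs, 15.4-fold lower (5.05 to 76.8).

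In the untreated pair the fold was smaller than in macrophages, without overlap of the intervals, in microglia (13.6-fold, above) and in 3 small gates. Migratory dendritic cells, recognised by Ccr7 and Fscn1, stood at 616 CPM in WT and 96.3 CPM in KO, 6.40-fold lower (5.14 to 8.05). Oasl1 (204 to 34.9 CPM) and Oasl2 (283.6 to 57.1 CPM) gave 33 and 54 of the 91 KO UMIs there. Neutrophils stood at 1366 and 178.3 CPM, 7.66-fold lower (5.22 to 11.7), with 24 of the 29 KO UMIs from Oasl2, in 56 and 58 cells. These KO UMIs lay in 6 of the 58 cells, up to 8 in 1 cell. Plasmacytoid dendritic cells stood at 263 and 31.9 CPM, 8.24-fold lower (5.38 to 13.2). As the WT level of that gate is not read as its own, neither is this fold. The 24 KO UMIs of that gate lay in 8 of 70 cells, and 12 of them in 1 cell. The folds of the last 2 gates thus rest on few cells, a spread that the counting intervals do not cover.

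Counts per cell showed the same contrast. To compare libraries of different depth, each cell was thinned to 1000 UMIs, which left out 19 and 20 macrophages of the untreated WT and KO libraries and 58 and 146 of the anti-PD1 ones. At that depth 57.6% of untreated WT and 3.56% of KO macrophages had a UMI of any member, and 42.9% and 1.14% after anti-PD1. Without thinning the shares were 91.3% and 24.1%, and 91.2% and 6.18%. In microglia the thinned shares were 30.6% and 2.87%, and 30.6% and 0.228%, against 74.6% and 22.1%, and 84.7% and 2.54% without thinning. CD8 T cells had 6.86% and 0.595%, and 10.9% and 0 of 379 cells, where 3 cells would be 0.792%. Their unthinned shares were 47.3% and 5.31%, and 30.7% and 1.57%. At least 3 different members were found in 6.04% of thinned untreated WT macrophages and in 0 of 1039 thinned KO macrophages, where 3 cells would be 0.289%.

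**Figure D4:**
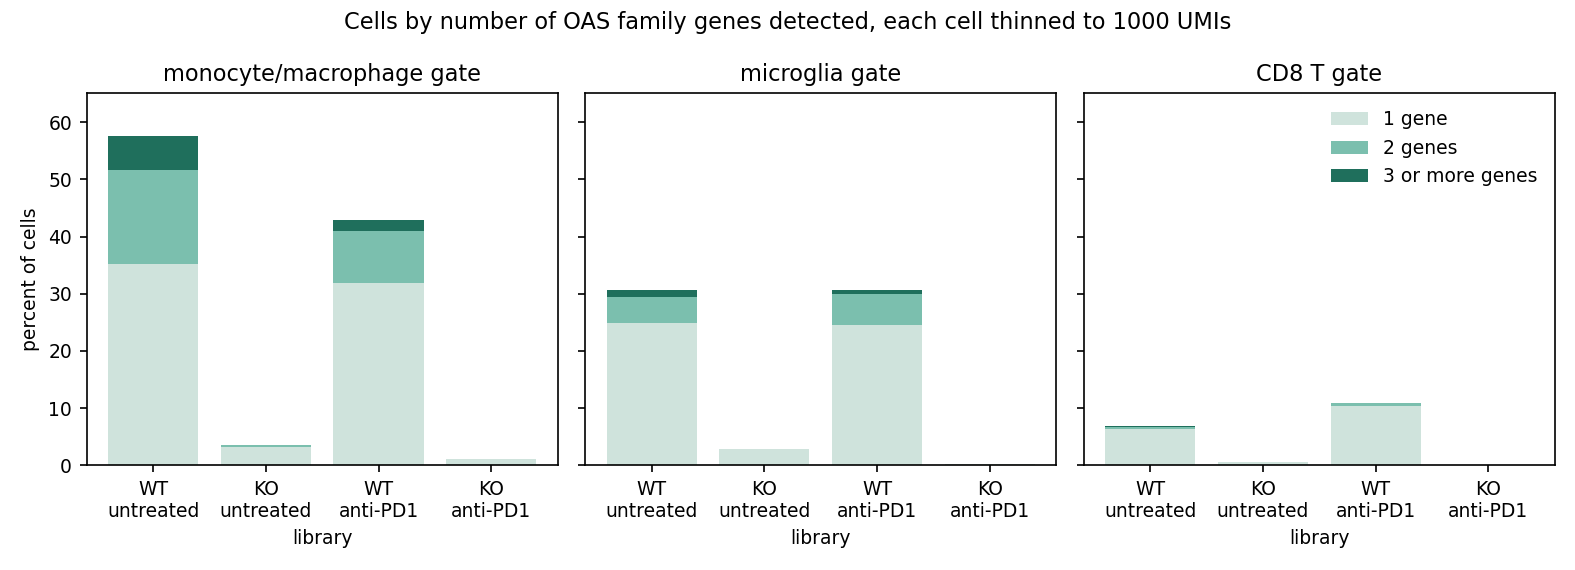
Percent of cells (vertical axis) with 1, 2 and 3 or more OAS family genes detected after each cell was thinned to 1000 UMIs, by library, in 3 gates. The bars reach 57.6% and 42.9% in WT macrophages and 3.56% and 1.14% in KO macrophages.

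The UMIs left in KO macrophages came from a minority of cells, which their low number alone requires. In the untreated KO library 255 of 1059 macrophages held the 511 family UMIs, and 1 cell held 22. The 10% of cells with the most family UMIs held 69.1% of them, against 31.6% of 14546 UMIs in untreated WT macrophages. The part of sparse counts in this difference was not tested. A split chosen after these values were seen compared macrophages with and without a UMI of Cxcl9, a chemokine gene induced by interferon-gamma. In untreated KO macrophages the family sum was 74.5 CPM in the 393 cells with Cxcl9 and 23.4 CPM in the 666 without, and Oasl2 was at 46.6 and 13.2 CPM, whereas Oas3 was at 2.86 CPM in both. After anti-PD1 the KO sums were 20.1 and 6.41 CPM. In WT the difference was smaller, 1022 and 949.4 CPM without treatment and 622 and 551 CPM after anti-PD1. Cells with Cxcl9 also had more UMIs (median 11590 against 9446 in untreated KO, and 7882 against 5910 in untreated WT), and 72 of the untreated KO cells had exactly 1 Cxcl9 UMI. The part of depth in this difference was not tested.

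A further split, also chosen after values were seen, set cells with at least 2 UMIs of Ccr2, a receptor of newly arrived monocytes, and at most 2 of the C1q genes against cells with at least 10 C1q UMIs and no Ccr2. In the untreated WT library the family stood at 1237 CPM in the former and 540.8 CPM in the latter, and in the anti-PD1 WT library at 914.6 and 529 CPM. In untreated KO cells the order was the other way round, 34.7 CPM (28.3 to 42.1) and 54.7 CPM (43.0 to 68.7). In anti-PD1 KO cells it was as in WT, 21.9 CPM (11.3 to 38.2, from 12 UMIs) and 10.8 CPM (9.17 to 12.6), with overlapping intervals. Without treatment the fold was 35.7 (29.4 to 43.7) in Ccr2-high and 9.88 (7.83 to 12.7) in C1q-high cells. After anti-PD1 the folds were 41.8 (23.9 to 81.0) and 49.0 (41.8 to 57.8), which overlap. Oasl2 gave 51 of the 74 KO UMIs in the untreated C1q-high cells. These were 133 cells, and a further 75 untreated KO cells lay just outside the limits of that class.

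Other genes of the pathway were counted from lists. Of Pde12 and Akap7, which break down the messenger, and Abce1, a ribosome recycling factor linked to this pathway, 0 of 3 were at least 2-fold lower in macrophages of either pair. Abce1 was the single one at least 2-fold higher, in untreated macrophages (27.8 to 63.0 CPM), where 4.49% of all genes were. Other sensors of nucleic acid were lower with the synthetases but by less. In macrophages 7 of 8 were at least 2-fold lower without treatment and 6 of 8 after anti-PD1, beside 4.42% and 7.88% of all genes. Ddx58, which encodes RIG-I, was 8.25-fold (7.07 to 9.67) and 5.20-fold (4.54 to 5.98) lower, and Eif2ak2, which encodes the kinase PKR, 4.69-fold (4.13 to 5.34) and 3.45-fold (3.11 to 3.84). Mavs, the adaptor below RIG-I, had log2 ratios of 0.76 and 0.09. Each of the 6 OAS genes had a larger fold than each of these sensors in macrophages of both pairs.

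Of 7 signalling genes, 2 (Stat2 and Irf7) were at least 2-fold lower in untreated macrophages and 4 (these and Irf1 and Irf9) after anti-PD1, beside the same 4.42% and 7.88% of all genes. Stat2 was 4.36-fold (4.02 to 4.73) and 4.57-fold (4.17 to 5.01) lower. Irf7, a factor that drives interferon genes and is itself induced by interferon, was 29.6-fold lower (26.3 to 33.5) and 99.2-fold lower (83.3 to 119), within the range of the OAS genes. The interferon-gamma receptor genes Ifngr1 and Ifngr2 had log2 ratios of 0.63 and -0.52 in the untreated pair, then -0.25 and -0.15 in the treated one. Of 6 reference genes of all cells, 0 were at least 2-fold lower in macrophages or microglia of either pair. Their median log2 ratio in the anti-PD1 pair was -0.36 in macrophages, -0.50 in microglia and -0.80 in CD8 T cells, where 1 of 5 measured (Rplp0) was at least 2-fold lower. Oas1c, another gene of the Oas1 group that could be read in macrophages, had 77 and 9 UMIs without treatment and 319 and 15 after anti-PD1, 6.51-fold (3.26 to 14.8) and 9.80-fold (5.85 to 17.7) lower.

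**Figure D5:**
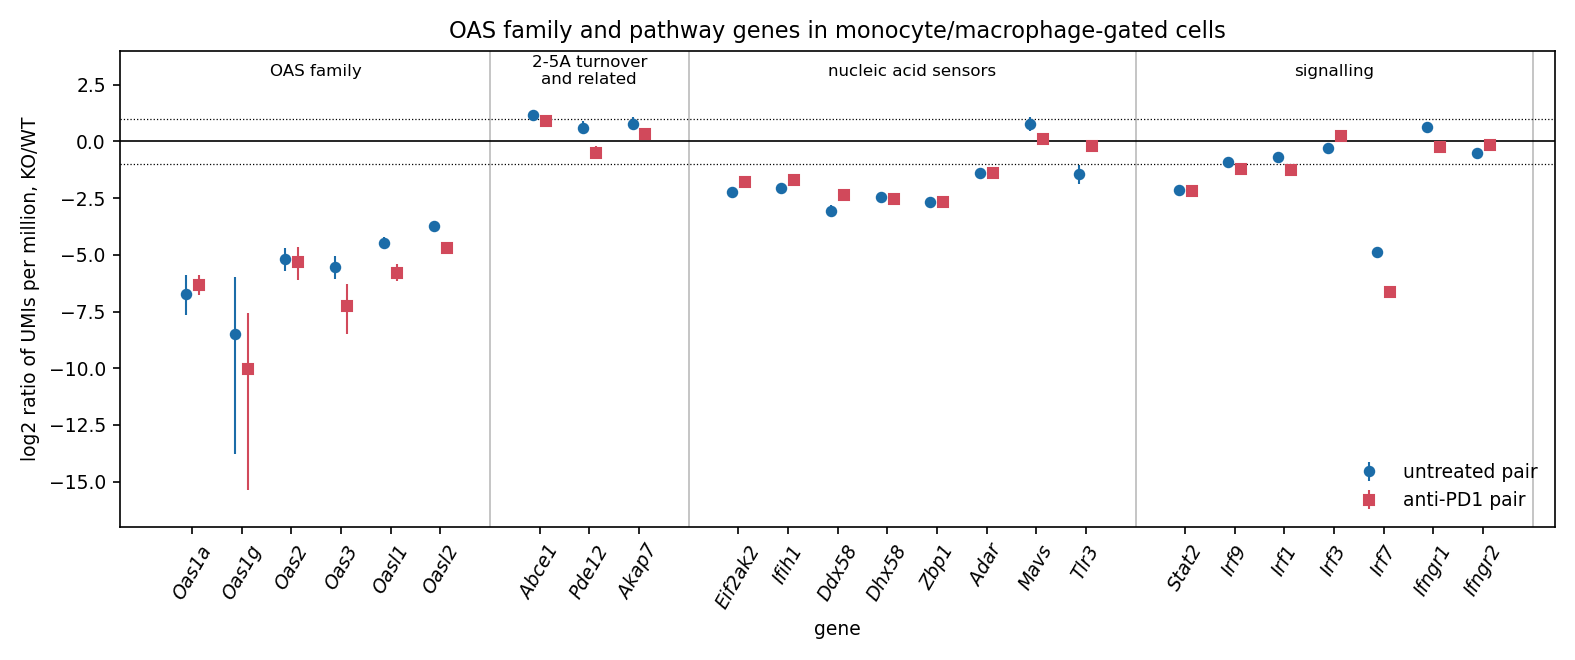
Log2 ratio of CPM in KO over WT monocyte/macrophage-gated cells, with 95% counting intervals, for the OAS family and pathway genes in the untreated pair (circles) and the anti-PD1 pair (squares). Dotted lines mark a 2-fold difference. The 6 OAS genes lie between -3.71 and -10.05, and Irf7 at -4.89 and -6.63.

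The nearest genes with at least 50 UMIs in a pair beside the 2 clusters were closer between genotypes. In macrophages the nearest measured genes on either side, 1500011B03Rik, 2210016L21Rik, Ddx54 and Ptpn11, had log2 ratios between -0.44 and 0.49. 2210016L21Rik begins 4243 bases beyond the Oasl cluster and stood at 19.5 CPM in WT and 21.8 in KO without treatment. After anti-PD1 it stood at 24.7 CPM in WT and 18.2 in KO. The others lie farther from their cluster, at 73468 (1500011B03Rik), 101741 (Ddx54) and 223012 bases (Ptpn11).

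The 2 WT libraries can only be set side by side, since they differ in day, treatment, V segment ratio and software version, and these cannot be told apart. In macrophages Oas1a was at 111.9 CPM without and 138.3 CPM with anti-PD1, and Oas1g at 31.9 and 42.6 CPM. The other 4 were lower in the anti-PD1 library: Oas2 at 107.1 and 27.4 CPM, Oas3 at 132.5 and 49.8, Oasl1 at 243.0 and 132.9, and Oasl2 at 363.7 and 212.9. In microglia the family sums were closer, 477 and 422.5 CPM, with Oas2 at 71.7 and 20.1 CPM and Oas1a at 60.9 and 96.2 CPM. CD8 T cells were at 81.8 and 85.3 CPM. The 2 KO libraries differ in the same respects, and their macrophage sum was 45.7 and 13.3 CPM.

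Likeness of pattern was measured as Pearson's r of log2(CPM + 1) over the 36 combinations of gate and library with at least 50 cells, which share libraries and depth and include the anti-PD1 dendritic cell gates with macrophage Lyz2. They include the KO libraries, so r partly restates the difference between KO and WT. Over these combinations the genes most like each member were known interferon-stimulated genes. Zbp1, a nucleic acid sensor, was closest to Oas1a (r 0.92), Phf11d to Oas1g (0.83), Ifit2 to Oas2 (0.89), Ifit3 to Oas3 (0.92), Rsad2, which encodes viperin, to Oasl1 (0.89) and Irgm1 to Oasl2 (0.92). Oasl1 and Oasl2 were more like each other (0.94) than either was like Oas3 (0.77 and 0.72). Over the 18 WT combinations alone, where the genotype no longer moves the values, Oas1a was closest to Hmox2 (0.94), Oas1g to Gm15964 (0.97), Oas2 to Irgm1 (0.96), Oas3 to Lilr4b (0.87), Oasl1 to Rab32 (0.96) and Oasl2 to Tnfaip2 (0.96), and Oasl1 with Oasl2 again reached 0.96. Of the genes closest to a member within WT, only Irgm1 was also among those closest over all combinations. The r of Oas3 with Oas1a was 0.88 over all combinations and 0.29 within WT.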

How the data were processed

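The authors deposited raw UMI counts for each gene in each barcode, not normalized. Per the file headers they came from Cell Ranger 3.1.0 (untreated) and 7.2.0 (anti-PD1), and per the submitters' processing notes from the builds mm10 and GRCm38. Settings for intronic reads and for calling cells are not given in the sources used here. Intronic counting and the transcript end read both change a gene's count.

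Cells with at least 200 genes and at most 10% mitochondrial UMIs were kept, and no doublet caller was run. Lineage gates were minimum sums of raw marker UMIs: 3 of Csf1r, Cd68, Adgre1, Ccr2 and 1 further marker for monocytes and macrophages, 2 of P2ry12, Tmem119, Sall1 and Gpr34 for microglia, and 2 of Cd3d, Cd3e and Cd3g for T cells, split by Cd8 and Cd4 genes. A cell that passed 2 gates besides the macrophage gate was left out, a macrophage could pass no other gate, T, NK and B cells could hold at most 1 UMI of the macrophage markers other than Ccr2, and a gate needed 50 cells in a library to be used. UMIs were summed by gate and library and divided by the gate total (CPM). Intervals are exact Poisson (levels), exact binomial on the split of counts (ratios) and Clopper-Pearson (shares), at 95%. Where KO had 0 counts, a floor of 3 counts in the library gave a lower bound. PCR copies are merged by UMI, and intervals cover counting error only. Shares of all genes 2-fold apart were taken over genes whose UMIs in both libraries summed to 50 or more, with 0.5 counts added. The interval script was tested on simulated counts with counting error only, a test that does not cover spread between cells or libraries. Alternatives were a stricter filter (500 genes, 5%), none, stricter and overlapping gates, TMM (edgeR 4.0.16) and DESeq2 1.42.0 factors in R 4.3.3, equal weight per cell, and thinning to 1000 UMIs. Python 3.11.15, numpy 2.4.6, scipy 1.17.1 and pandas 2.3.3 were used, GENCODE for positions and transcripts, and RefSeq for promoters.

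The members, lists, gates and named genes were chosen with earlier results of these data known. Named genes were the 6 members, the pathway lists, the 3 genes most like each member (at least 200 UMIs) and the nearest measured genes beside the clusters. Some genes of the lists are not reported here. The macrophage splits, the stricter microglia gate, the removal of shared barcodes and of the top 5% of cells were chosen after seeing the data.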

Additional observations from a re-analysis of the deposited data

How the results depend on the processing

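Values here are log2 ratios KO/WT. For the family sum in 3 gates and 2 pairs, 59 values under the alternatives were all lower in KO, 46 of them within the counting interval of the value reported. The reported values were -4.44 and -5.51 in macrophages (untreated and anti-PD1), -3.77 and -6.86 in microglia and -3.89 and -4.13 in CD8 T cells. Thinning to 1000 UMIs gave -4.73 and -5.92 in macrophages and -4.42 and -7.90 in microglia. Equal weight for each cell gave -4.70 and -5.84 in macrophages, no exclusion between gates -4.09 and -5.77, and TMM scaling -5.73 in anti-PD1 macrophages. In untreated microglia the stricter cell filter gave -3.50, gate thresholds raised by 1 UMI -4.11 and the gate without Ccr2, added after seeing the data, -4.14. That gate gave -7.79 in anti-PD1 microglia. The causes of these shifts were not tested. Of 280 values for single members, 279 were lower in KO. The exception was Oasl2 in untreated CD8 T cells at 1000 UMIs, 0.21 from 3 WT and 2 KO UMIs beside -1.77. With no minimum on UMIs the share of all genes at least 2-fold lower in KO was 15.7% and 11.1% in macrophages, 14.2% and 9.21% in microglia and 5.86% in untreated CD8 T cells. No paired analysis was possible because each group had 1 library and the labels carry no replicate numbers, so no library could be left out either. Depth limits Oas1g and the T cell gates, where KO counts were 0 to 13 UMIs.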
